A study of Canis lupus familiaris with 21 samples.

Results

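The paralogues Twist1 and Twist2 were compared through lines of MDCK-II cells, epithelial cells from dog kidney, that overexpress one factor or the other. These are 6 of the 21 columns of the deposited value table, 3 named Twist1 and 3 named Twist2, and they were chosen by sample title alone. The other 15 columns hold lines overexpressing E47, Snail1, Snail2, Zeb1 or Zeb2, 3 columns each. On each two-colour canine array the Cy5 channel held RNA of the overexpressing line and the Cy3 channel RNA of MDCK-II control cells that carried the empty vector pLKO, as that channel's labels for source and reference say. Clones had been grown in G418 or puromycin and picked with cloning rings. The labels call the arrays of a line biological replicates. Whether a line's arrays stand for different clones or cultures is not said. The p-values thus reflect only how these samples vary, some of which may be technical. The vector that carried each factor, its promoter and the species of the coding sequence are not given in the sources used here, and no dye swap is named. The extraction protocol conflicts with the channel labels, since in its wording the RNA was from tumours and Cy3 was a pool of them.

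Twist1 and Twist2 are basic helix-loop-helix transcription factors with closely related DNA-binding domains. They bind E-box sequences as dimers, often with E proteins such as E47, and both are known as drivers of epithelial to mesenchymal transition, the change by which sheets of joined cells loosen and start to move. How far the programmes of such close relatives diverge in a common cell background is the question this pair of lines addresses. Spots on these arrays could not be tied to genes. In 21 of 21 scanner files the grid that supplies probe IDs and names belongs to design 015067, while the slide belongs to design 021193. Over 834 pairs of spots listed under a common transcript name, the mean log2 control intensities correlated at r = -0.0684 across pairs, which are not independent replicates. For that reason spots are identified by the ID at their grid position and by array row and column, with no gene name and no genomic location. Neither the overexpression of TWIST1 and TWIST2 nor the epithelial markers of the cells could be checked.

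The labels also conflict between columns and files. Of the 6 Twist columns, 5 matched one scanner file each, with equal log10 ratios (tolerance 1e-04) for 97.8% to 97.9% of 42034 probes, and 3 of these 5 files are recorded for another line. The first and second Twist1 columns equalled files recorded for E47, and the third Twist1 column equalled a file recorded for Twist2. The first and second Twist2 columns equalled files recorded for Twist2, but under each other's number. The third Twist2 column equalled no file and lay nearest to one recorded for Twist1 (r = 0.955 across probes, next file 0.91). By those files, the first and second Twist1 columns shared one slide, and the third Twist1 column shared another with the first and second Twist2 columns. On the files, between 47.8% and 73.3% of the tested spots were well above background in the line channel for Twist1, with the lowest share in the third column. The corresponding shares for the first and second Twist2 columns were 67.4% and 79.9%, and in the control channel 73.8% to 77.2% for all 5. At 958 spots of the table, 685 of them tested, the value departed from the matched file at that position in some column that equals a file. These spots are called exchanged below, but where their values came from was not tested. All results below use the columns by their names, and 3 arrays a line limit the precision.

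Of 30183 spots tested, 3142 (10.4%) differed between the Twist lines by limma, called at an adjusted p under 0.05 and a difference of at least 1 on the log2 scale, which is 2-fold. At 1252 spots (4.15%) the ratio to control was higher in Twist1, and at 1890 (6.26%) it was lower. Both lines were called against control at far more spots than against each other, but these counts come from unlike tests. A line mean against 0 leaves out the control's own spread and holds any dye bias. A difference between line means has the larger standard error, and the kind of control they share cancels in it. Twist1 was called against control at 11152 spots (36.9%), 4811 higher (15.9%) and 6341 lower (21%). Twist2 was called at 14611 spots (48.4%), 7063 higher (23.4%) and 7548 lower (25%). Both sets of calls rest on the same kind of control channel, so their overlap is given only as counts that enter the classes below. The lines were called with the same sign at 9152 spots, and at 8302 of these the lines were not called different from each other.

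Most differences were modest in size. Their median absolute value was 1.48 on the log2 scale, with a median standard error of 0.35 over the tested spots. Differences of at least 4-fold numbered 186 higher and 430 lower in Twist1, those of at least 8-fold 43 and 65, and those of at least 16-fold 20 and 14. Of the 3142 called spots, 2977 (94.7%) had all 3 columns of one line above all 3 of the other, against 10113 (33.5%) of all tested spots. The smallest adjusted p was 1.32e-10, and 9400 spots had an unadjusted p under 0.05.

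**Figure D1:**
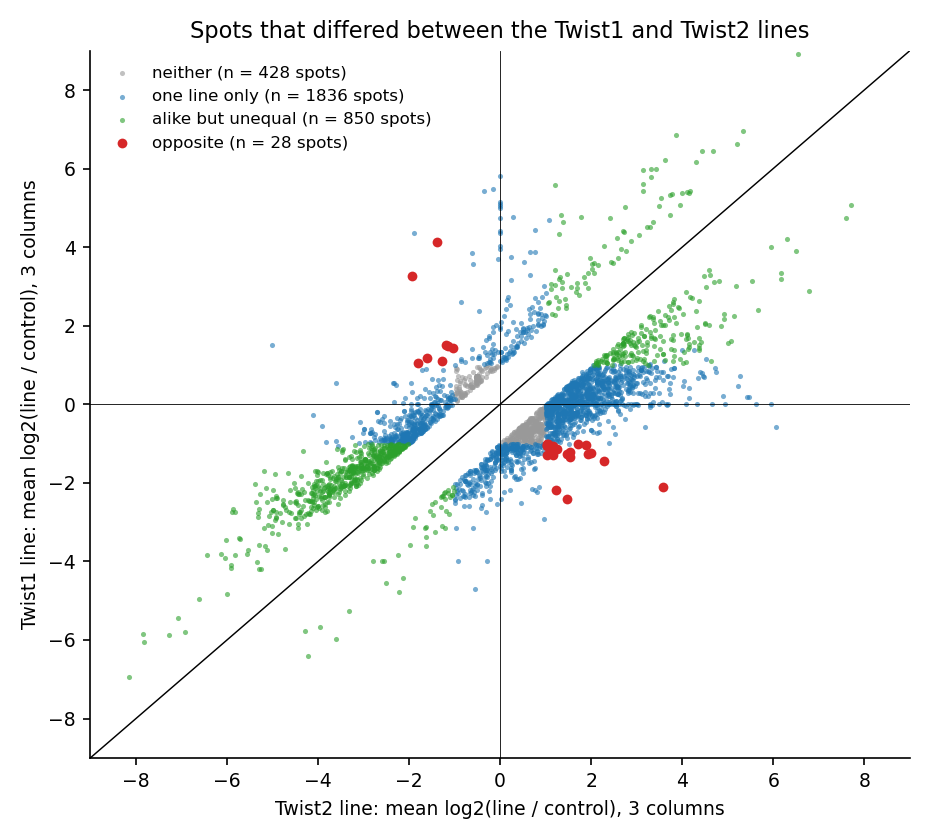
Mean log2 ratio to control of Twist2 (horizontal) and Twist1 (vertical), 3 columns each, for the 3142 spots called different between the lines, coloured by class, with the line of equal change drawn as the diagonal. The band along the diagonal is empty because a call needed a difference of at least 1, and the 28 opposite spots lie 8 in the upper left and 20 in the lower right.

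The direction of the difference depended on which spots were kept and how columns were centred. With all tested spots 39.8% of calls were higher in Twist1. Among the 13063 spots well above background in both channels on all 21 files, 1278 were called and 69.2% of them were higher in Twist1. Centring each column on its median over the tested spots gave 3289 calls, 53.2% of them higher. The column medians before that centring were -0.038, -0.064 and -0.23 for Twist1 and between -0.0065 and 0.00054 for Twist2.

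Slide and spread moved with the comparison as well. With slide as a fixed block 1866 spots were called, 24.1% of them higher in Twist1, and within the slide that held columns of both lines 2758, 24.6% higher. That slide holds 1 Twist1 column, the third, against 2 of Twist2, so every within-slide value has a single Twist1 array. That array is assumed to vary like the columns of the other lines and gives no check by a replicate. The fixed block leaves out columns that equal no file, the third Twist2 column among them. No other slide holds both lines, so the fixed-block difference rests on those same columns and is no separate check. The standard deviation of log2 ratios over spots was 1.4 to 1.47 in the Twist1 columns and 1.57 to 1.75 in the Twist2 columns. Scaling all columns to a common spread left 275 calls. In the arrays recorded for the lines, in place of the columns, limma called 0 spots (538 at an unadjusted p under 0.05, smallest adjusted p 0.874). The processed ratios of the same recorded arrays also gave 0 (1141 at an unadjusted p under 0.05, smallest adjusted p 0.977). After normexp and loess those arrays differ from the columns in samples as well as in processing. The processed ratios are the values that 15 of the 21 columns equal, at 97.8% to 97.9% of probes. For those columns that run differs in which file stands for which line, and not in processing. The part of each in the lost calls was not tested.

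The first Twist1 column stood apart from its line. Over the tested spots, the root mean square log2 difference was 0.608 between the second and the third Twist1 columns, and 1.09 and 1.08 between the first and these. Against the Twist2 columns the first Twist1 column differed by 1.03 to 1.17, about as much as from its own line. The Twist2 columns differed among themselves by 0.497 to 0.691. Across spots, which are not independent replicates, the first Twist1 column correlated at 0.717 with each of its own line and at 0.746 to 0.766 with those of Twist2. All columns share the kind of control, which enters every r. The mean root mean square difference was 0.77 within lines and 1.04 between them, and the exact two-sided permutation test over the 20 splits of 6 columns gave p = 0.1, the smallest value it allows. The same exact permutation test on r (0.858 within, 0.782 between) also gave p = 0.1.

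Leaving out the first Twist1 column raised the count from 3142 to 4449 spots (14.7%), 1391 higher (4.61%) and 3058 lower (10.1%) in Twist1. The fits shared 2413 calls, 2413 of them with the same sign, while 729 were called only with all 6 columns and 2036 only without the first Twist1 column. Over all tested spots, the first Twist1 column lay nearer the Twist2 mean than the mean of the other two Twist1 columns at 51.1%. Calls against control in Twist1 changed little, to 11628 (38.5%).

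The called spots fell into 4 classes, defined by the calls of each line against control. Opposite changes, called in both lines with opposite signs, made up 28 spots (0.891% of those called). Changes called in one line only made up 1836 (58.4%), and changes alike in direction but unequal in size 850 (27.1%). The remaining 428 (13.6%) were called different from each other but against control in neither line. Without the first Twist1 column the same classes held 80, 2874, 867 and 628 spots.

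**Figure D2:**
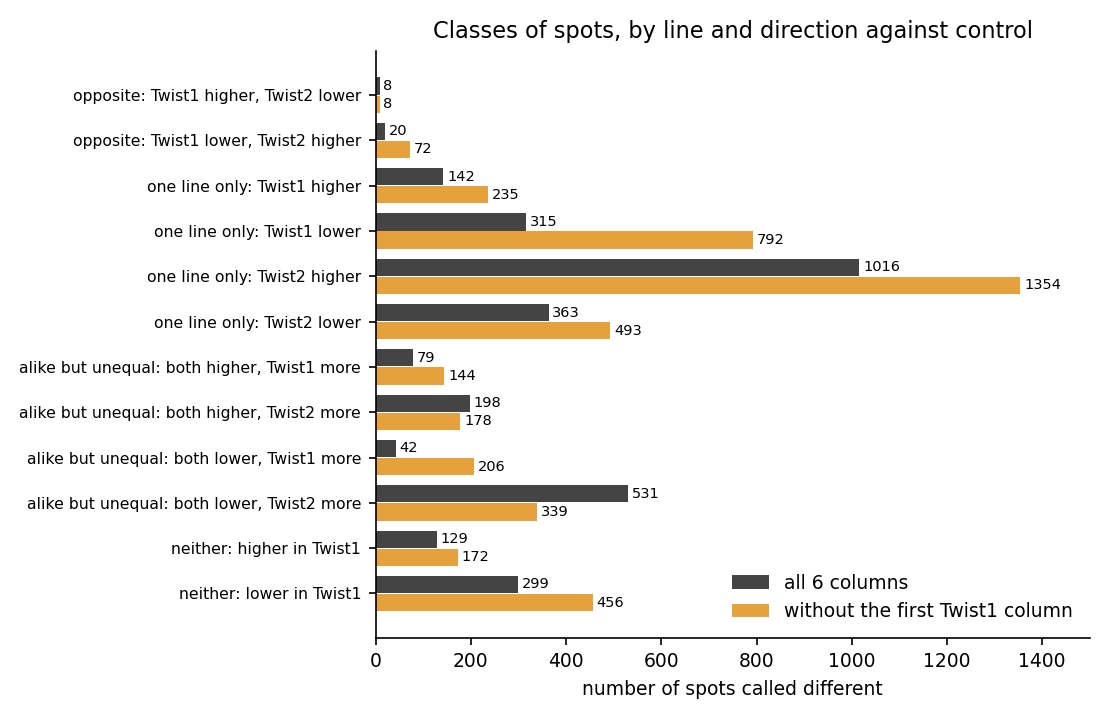
Number of spots called different between Twist1 and Twist2 (horizontal) in each kind of change against control (vertical), with one bar for the fit on all 6 columns and one for the fit without the first Twist1 column. The largest kind in both fits is a rise called in Twist2 only, with 1016 and 1354 spots, and the smallest is Twist1 higher with Twist2 lower, with 8 and 8.

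Opposite changes were few, and their direction depended on the filter. In 8 of the 28 spots Twist1 was higher and Twist2 lower than control, and in 20 Twist1 was lower and Twist2 higher. The Twist1 means of the 8 lay between 1.06 and 4.13 and their Twist2 means between -1.94 and -1.03. In the 20, Twist1 lay between -2.4 and -1.0 and Twist2 between 1.02 and 3.57. Every difference exceeded 2 on the log2 scale by construction, since each line had to pass the threshold of 1, and the observed differences reached 5.51 and -5.67. Of the 28, 27 were also called different without the first Twist1 column, and 21 stayed in the class, while 6 moved to a change in one line only. Without that column the class held 80 spots, 8 and 72 by direction, and 47 of these 80 belonged to the one-line class with all 6 columns. Among spots measured in both channels on all 21 files the split was 4 with Twist1 higher and 2 with Twist1 lower, and it was 3 and 2 without the first Twist1 column. Scaling to a common spread left 3 opposite spots, with Twist1 lower in each.

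A_11_P0000014810 (array row 433, column 72) was the largest opposite change with Twist1 higher that was well measured in every Twist file and kept without the first Twist1 column. Its log2 ratios were 0.37, 1.42 and 1.39 in the Twist1 columns and -2.01, -1.81 and -1.60 in the Twist2 columns. All Twist1 values were above 0 and all Twist2 values below, and the first Twist1 column was the weakest of its line. That the lines do not overlap was a condition for naming this and the other divergent spots. The means were 1.06 ± 0.60 and -1.81 ± 0.20 (SD, n = 3), which is a 7.3-fold difference (log2 difference 2.87, SE 0.28, adjusted p 1.11e-05). The processed signals show the change in the line channel. In the Twist1 files Cy5 read 2320, 4100 and 2650 against Cy3 of 1790, 1530 and 1010. In the Twist2 files Cy5 read 517 and 634 against Cy3 of 2080 and 2230.

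A_11_P0000010568 (row 417, column 85) had log2 ratios of 0.77, 1.92 and 1.79 in Twist1 and -1.36, -0.98 and -1.09 in Twist2. The difference of 2.64 (SE 0.32, adjusted p 0.000115) was again smallest against the first Twist1 column and did not rest on it. The other two well measured spots of this direction had the reverse order within Twist1. In A_11_P0000025294 (row 256, column 35) the first Twist1 column was the highest at 2.43, with 0.57 and 0.53 in the others and -1.84, -1.28 and -1.67 in Twist2. In A_11_P0000024571 (row 482, column 57) the Twist1 values were 2.12, 0.57 and 0.66 and the Twist2 values -1.34, -1.25 and -1.20. Their differences were 2.78 (SE 0.54, adjusted p 0.00346) and 2.38 (SE 0.36, adjusted p 0.000564), and without the first Twist1 column both were a change in one line only. A fit on the 6 Twist columns alone ended both calls (adjusted p 0.0623 and 0.0559). Slide as a fixed block, with its single Twist1 array, also ended them, at differences of 2.09 and 1.95.

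The well measured spots with Twist1 lower and Twist2 higher numbered 3. A_11_P0000034125 (row 264, column 71) had log2 ratios of -2.96, -1.99 and -2.26 in Twist1 and 1.67, 1.47 and 1.30 in Twist2. This was a 14.8-fold difference (-3.88 on the log2 scale, SE 0.45, adjusted p 7e-05). Cy5 read 276, 394 and 217 in the Twist1 files and 10200 and 9880 in the Twist2 files, where the control read 1040 to 3560. Zeb1 (-3.60 ± 0.38) and Zeb2 (-3.09 ± 1.30) were also low at this spot, and Snail2 (0.85 ± 0.41) was the only line besides Twist2 with a mean above 0.

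A_11_P0000019003 (row 66, column 8) had the smallest standard error of the 7 named opposite spots. They were -1.16, -1.22 and -1.47 in Twist1 and 1.35, 1.11 and 1.02 in Twist2. The difference was -2.44 (SE 0.17, adjusted p 3.92e-07), and it was -2.51 without the first Twist1 column. E47 was higher still at this spot, at 3.05 ± 0.032, and Twist1 was the only line with a mean below 0. A_11_P0000014662 (row 436, column 55) had values of -3.43, -1.37 and -1.78 in Twist1 and 1.38, 1.05 and 1.23 in Twist2, a difference of -3.41 (SE 0.65, adjusted p 0.00296). Snail1 and Snail2 were low there too, at -5.65 ± 1.40 and -4.82 ± 0.60. On the shared slide, with 1 Twist1 array, the difference was -2.99 (adjusted p 0.0629).

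**Figure D3:**
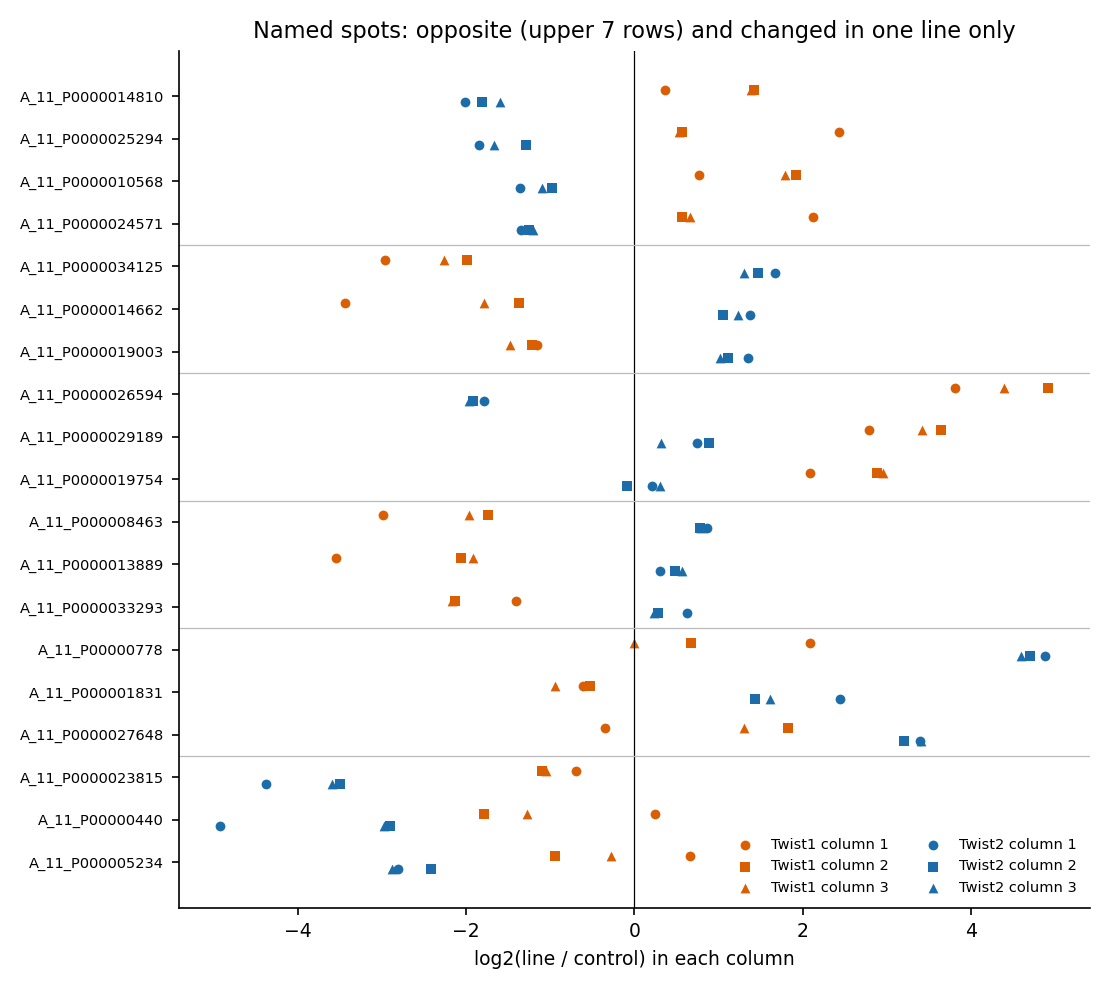
Log2 ratio to control (horizontal) of the named opposite and one-line spots (vertical), 1 point for each of the 6 Twist columns, with Twist1 in orange and Twist2 in blue and a symbol for each column number. At every spot shown the 3 columns of one line lie apart from the 3 of the other, because naming required it. Within Twist1 the first column (circle) is often at an end, as with 2.43 beside 0.57 and 0.53 at A_11_P0000025294.

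Among changes called in one line only, most belonged to Twist2 in the values as deposited. A rise in Twist2 alone accounted for 1016 of the 1836 spots and a fall in Twist2 alone for 363. Twist1 alone was higher at 142 and lower at 315. Scaling the columns to a common spread turned this order. It left 51 higher and 63 lower in Twist1 only, against 69 and 10 in Twist2 only. Quantile normalisation left 99 and 87 in Twist1 only, against 130 and 35 in Twist2 only. Among spots measured in both channels on all 21 files, falls in Twist2 only (259) outnumbered rises (190), with 85 rises and 58 falls in Twist1 only. Median log2 ratios of the 1016 spots were 0.11 in Twist1 and 1.79 in Twist2, with medians of 0.39, 0.0 and -0.03 in the Twist1 columns and 1.86, 1.79 and 1.76 in the Twist2 columns. These were dim spots. Their median control signal was 81.4, against 317 over all tested spots, and 18.4% of them were well above background in both channels on all 5 Twist files, against 44.5% of all tested spots. For the 363 spots lower in Twist2 only, the medians were -0.59 and -1.92, the median control signal was 1040 and 59.2% were measured on all 5 files. Being called in one line and not in the other describes the class, and the test of the difference itself is the call between the lines.

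The named spots with a rise in Twist1 only were led by A_11_P0000026594 (row 487, column 19). It had log2 ratios of 3.81, 4.92 and 4.39 in Twist1 and -1.79, -1.91 and -1.96 in Twist2. At 6.26 (SE 1.30, adjusted p 0.00402) this was the largest difference among the well measured spots. Its Twist2 mean of -1.89 ± 0.087 missed the threshold against control (adjusted p 0.0678). The spot varied widely in Zeb2 (-1.25 ± 4.40), and that spread enters the variance shared by all lines. Cy5 read 6030, 10100 and 4410 in the Twist1 files and 195 and 108 in the Twist2 files. E47, Snail2 and Snail1 were also high there, at 4.64, 3.44 and 3.14. Zeb1 was low like Twist2 (-3.91), while the Zeb2 columns were too far apart to place that line. On the shared slide, with 1 Twist1 array, the difference was 6.24 (adjusted p 0.0738).

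A_11_P0000029189 (row 123, column 74) had 2.79, 3.65 and 3.42 in Twist1 against 0.75, 0.89 and 0.32 in Twist2. The difference was 2.63 (SE 0.40, adjusted p 0.000573), and Twist2 was also slightly above control (0.65 ± 0.30, adjusted p 0.0464, under 2-fold). A_11_P0000019754 (row 462, column 18) had 2.09, 2.89 and 2.96 against 0.21, -0.08 and 0.31. Its difference of 2.50 (SE 0.72, adjusted p 0.0285) was lost when any Twist column other than the first Twist1 column was left out (adjusted p 0.0613 to 0.0856). In all, 72 spots of this kind met the criteria for naming.

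The falls called in Twist1 only were led by A_11_P000008463 (row 46, column 39). It had log2 ratios of -2.99, -1.74 and -1.96 in Twist1 and 0.86, 0.78 and 0.79 in Twist2. The difference of -3.04 (SE 0.27, adjusted p 6.01e-06) was 8.24-fold, and the Twist2 mean of 0.81 ± 0.040 was itself above control without reaching 2-fold (adjusted p 0.00125). A_11_P0000013889 (row 465, column 71) had -3.54, -2.06 and -1.92 against 0.31, 0.48 and 0.57, a difference of -2.96 (SE 0.38, adjusted p 0.00019). A_11_P0000033293 (row 446, column 37) had -1.40, -2.13 and -2.16 against 0.63, 0.28 and 0.24, a difference of -2.28 (SE 0.30, adjusted p 0.000233). In the first and second of these spots the first Twist1 column was the lowest of its line, and in A_11_P0000033293 it was the highest. These 3 calls held under the alternatives on the value table that were run for them, 21 for the first and the third spot and 19 for A_11_P0000013889, which does not pass the filter for signal on all 21 files.

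Among rises called in Twist2 only, A_11_P00000778 (row 163, column 75) had log2 ratios of 2.09, 0.67 and 0.00 in Twist1 and 4.88, 4.70 and 4.59 in Twist2. The Twist2 columns lay close together, while the Twist1 columns were spread from 0.00 to 2.09. The Twist1 mean of 0.92 ± 1.1 (adjusted p 0.0376) lay just short of the 2-fold threshold, so the class does not mark an absence of change there. The value of 0.00 enters that mean, and whether it is a measured ratio was not checked. The difference was -3.81 (SE 0.51, adjusted p 0.000274). In the deposited table this spot is among those called exchanged, which depart from the matched files, so scanner signals are not given for it. The signal and saturation criteria for naming were read at its own position, so they were not checked for these ratios.

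A_11_P000001831 (row 115, column 1) had -0.61, -0.52 and -0.94 in Twist1 and 2.44, 1.44 and 1.61 in Twist2. Its difference was -2.52 (SE 0.42, adjusted p 0.00108), and the Twist1 mean of -0.69 ± 0.22 missed the threshold (adjusted p 0.0511). A_11_P0000027648 (row 224, column 2) had -0.35, 1.83 and 1.31 in Twist1 and 3.40, 3.20 and 3.41 in Twist2. There the first Twist1 column alone lay below control, and the difference fell from -2.41 (adjusted p 0.00358) to -1.77 (adjusted p 0.00704) without it. With that column the Twist1 mean of 0.93 ± 1.1 (adjusted p 0.0227) lay just short of the 2-fold threshold, so Twist1 was not without change. A fit on the Twist columns alone ended the call of A_11_P0000027648 (adjusted p 0.0798). The fixed slide block, with its single Twist1 array, did not keep that call either.

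Among falls called in Twist2 only, A_11_P0000023815 (row 345, column 15) had -0.69, -1.10 and -1.05 in Twist1 and -4.38, -3.50 and -3.59 in Twist2. Cy5 read 3960, 2770 and 1860 in the Twist1 files and 366 and 772 in the Twist2 files, against control signals of 3870 to 8740. The difference was 2.88 (SE 0.52, adjusted p 0.00202). Its Twist1 mean of -0.95 lay just short of the 2-fold threshold, so the class there marks a position near the threshold and not an absence of change. A_11_P00000440 (row 337, column 46) had 0.25, -1.78 and -1.27 against -4.92, -2.90 and -2.97, a difference of 2.66 (SE 0.57, adjusted p 0.00619). Leaving out the first column of both lines brought it to 1.41 (adjusted p 0.0662). The call was also lost in the fit on the Twist columns alone (2.66, adjusted p 0.108). With slide as a fixed block, and so a single Twist1 array, the difference was 2.64 and was not called. A_11_P000005234 (row 376, column 47) had 0.66, -0.94 and -0.28 against -2.81, -2.41 and -2.88, a difference of 2.51 (SE 0.37, adjusted p 0.000559).

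Spots changed alike but in unequal size mostly moved further in Twist2. Of 850, 531 were lower than control in both lines and more so in Twist2, and 198 were higher in both and more so in Twist2. Twist1 moved further at 79 spots that were higher in both and at 42 that were lower in both. The 531 spots were bright, with a median control signal of 2990, and their median log2 ratios were -1.73 in Twist1 and -3.27 in Twist2. By column these medians were -1.19, -2.18 and -2.04 in Twist1 and -3.55, -3.10 and -3.18 in Twist2, so the shallowest Twist1 column and the deepest Twist2 column were each the first. This kind depended on both. Without the first Twist1 column it held 339 spots, against 206 that were lower in both and more so in Twist1. Without the first Twist2 column it held 166. Scaling the columns to a common spread left 31 spots in the whole class, of which 1 was lower in both and more so in Twist2, and 23 were higher in both and more so in Twist1.

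Among spots higher in both lines, A_11_P0000035885 (row 298, column 37) rose more in Twist1. Its log2 ratios were 2.69, 3.95 and 3.59 in Twist1 and 1.37, 1.01 and 1.26 in Twist2, a difference of 2.20 (SE 0.36, adjusted p 0.00105). A_11_P0000012705 (row 310, column 47) had 6.05, 6.50 and 6.80 in Twist1 and 4.41, 4.42 and 4.47 in Twist2, so both lines were far above control. In the files Cy5 read 19200 to 32800 for Twist1 and 9730 and 10300 for Twist2, where the control read 172 to 495. The difference was 2.01 (SE 0.44, adjusted p 0.00733). With slide as a fixed block, and so a single Twist1 array, neither call was kept.

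A_11_P000002681 (row 74, column 40) rose more in Twist2, with 5.58, 5.36 and 5.65 there and 3.45, 2.04 and 3.92 in Twist1. In Twist1 the second column was the lowest, and its control signal of 403 was above the 78.8 to 280 read in the other 4 files. The difference was -2.40 (SE 0.56, adjusted p 0.0102). With slide as a fixed block and on the shared slide it was -1.55 and was not called. Both of these values rest on the third Twist1 column alone, the highest of its line. A_11_P000009033 (row 238, column 53) showed the like pattern, with 3.13, 1.69 and 4.20 in Twist1 against 5.41, 5.07 and 5.05 in Twist2. Its control signal in the second Twist1 file was 1290, against 201 to 398 in the others. The difference of -2.17 (SE 0.56, adjusted p 0.0177) was lost without the second Twist1 column (-1.51, adjusted p 0.0729) and without the first Twist2 column (-2.05, adjusted p 0.0674). With slide as a fixed block and on the shared slide it was -1.04 and was not called. Both of these values rest on the single Twist1 array there, again the highest of its line.

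Among spots lower in both lines, A_11_P0000020064 (row 4, column 35) fell more in Twist1. It had -5.76, -3.78 and -4.07 in Twist1 and -2.09, -2.67 and -2.72 in Twist2, a difference of -2.04 (SE 0.46, adjusted p 0.00887). The first columns were the extremes on both sides, and without both the difference was -1.22 (adjusted p 0.0788). Slide as a fixed block, with its single Twist1 array, also ended the call. Snail1, Snail2, Zeb1 and Zeb2 were also low at this spot (means -6.39 to -5.23), while E47 was at 1.60 ± 0.093. A_11_P000006485 (row 83, column 20) had -3.86, -3.07 and -3.24 against -1.58, -1.63 and -1.67, a difference of -1.76 (SE 0.31, adjusted p 0.00158). Scaling to a common spread left that difference at -1.77 but raised its adjusted p to 0.0812.

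A_11_P0000041476 (row 506, column 63) fell more in Twist2. Its values were -1.06, -3.63 and -3.31 in Twist1 and -7.27, -4.99 and -5.31 in Twist2, with Cy5 of 105 on the first Twist2 file against a control signal of 16200. The difference was 3.19 (SE 0.73, adjusted p 0.00949), and without the first Twist2 column it was 2.48 (adjusted p 0.0564). A_11_P0000015419 (row 501, column 7), among the brightest spots, had -0.85, -3.22 and -2.78 against -6.82, -4.20 and -4.81. Its difference of 2.99 (SE 0.68, adjusted p 0.00901) became 2.22 (adjusted p 0.0531) without the first Twist2 column. Slide as a fixed block, with its single Twist1 array, ended both calls. At both spots E47 and Snail2 were also far below control (-5.90 and -5.15, then -5.08 and -4.95), while Snail1 and Zeb1 lay within 0.45 of it.

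Some spots were measured in one line and not in the other. In the line channel 664 tested spots were well above background in both Twist2 files and in no Twist1 file. The reverse held for 25 spots. Of the 664, 319 were called lower in Twist1, beside 6.26% of all tested spots, and of the 25, 23 were called higher, beside 4.15%. Choosing spots by detection in one line largely fixes that direction, so nothing is read from these counts. The counts do not weigh alike, since 3 Twist1 arrays and 2 Twist2 arrays have a file and the line-channel shares above background differ as given. For these spots the dimmer line has only a bound. The folds below rest on median signals corrected by normexp (offset 50) and loess and normalised between arrays, not on the processed signals quoted. They set the brighter line's mean against the lowest signal well above background in the dimmer line, or the spot's own where higher. The offset raises dim signals and so narrows these folds, which are also open to dye bias. The adjusted p beside each fold belongs to the limma difference of log2 ratios.

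A_11_P0000023836 (row 319, column 56) was at least 12.6-fold higher in Twist1 (adjusted p 0.00524). Its Twist1 log2 ratios were only 1.25, 1.66 and 1.62, but the control was bright and Twist2 had -5.53, -5.24 and -4.27. Cy5 read 2820 to 3660 in the Twist1 files and 25.9 and 36.2 in the Twist2 files. A_11_P000009223 (row 112, column 22) was at least 3.08-fold higher in Twist1 (adjusted p 2.02e-05), with 6.51, 5.51 and 5.41 in Twist1 and 0.00 in each Twist2 column. Neither the control nor Twist2 was well above background there, and the control read 10.2 to 21.7. Snail1 was also at 0.00 (SD 0). Such constant values add no spread to the variance shared by the lines, so this adjusted p is no measure of agreement between replicates.

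In the other direction, A_11_P0000029627 (row 211, column 48) was at least 6.14-fold higher in Twist2 (adjusted p 9.91e-06). Cy5 read 2710 and 2510 in the Twist2 files against 20 to 27.1 in the Twist1 files, and the log2 ratios were 6.19, 5.87 and 6.14 against -0.87, -0.33 and -0.54. A_11_P0000027688 (row 501, column 9) was at least 3.92-fold higher in Twist2 (adjusted p 1.61e-07). Its ratios were 6.47, 5.61 and 5.77 in Twist2 and 0.00 in each Twist1 column. E47 was at 6.79 ± 0.93 at A_11_P0000029627. At A_11_P0000027688 E47, Zeb1 and Zeb2 were at 0.00 (SD 0), as was Twist1, whose files read 17.1 to 24.9 in both channels. Values of exactly 0.00 at such signals are not read as measured ratios. They add no spread to the shared variance, so the adjusted p of this spot is no measure of agreement between replicates.

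The spots called different but against control in neither line lay close around it. At 129 of 428 Twist1 was the higher line and at 299 the lower. Line means ran from -1.0 to 1.0, and differences from -1.95 to 1.89. The 129 higher in Twist1 were bright spots, with a median control signal of 6150, and 38% of them were saturated in a channel on at least 1 of the 5 files, against 0.745% of all tested spots. Saturation compresses a ratio, and its part in these 129 differences was not tested.

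A difference of under 2-fold could be shown for part of the array. The 95% interval of Twist1 minus Twist2 lay within -1 to 1 on the log2 scale at 9484 spots (31.4%). With no filter on signal it did so at 17174 of 42034 (40.9%), so spots with little signal can be bounded too. At 264 tested spots the difference was exactly 0, and how many of them are among the 9484 was not counted. Of the 13063 spots well above background in both channels on all 21 files, 6435 (49.3%) were bounded. Of the 9484 spots, 2411 were called alike against control in both lines, 1456 higher and 955 lower. Of the higher ones, 90.1% were above background in both channels on all 5 files, and of the lower ones 38%, beside 44.5% of all tested spots. For 95 of the spots called alike the interval lay within -0.5 to 0.5. For spots outside these intervals and not called, the data neither place the lines together nor apart at 2-fold.

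The named spots of this kind changed several-fold and to the like extent in both lines. A_11_P0000039614 (row 125, column 4) had log2 ratios of 2.73, 3.15 and 3.17 in Twist1 and 2.96, 3.22 and 2.72 in Twist2. The difference was 0.05 (95% interval -0.38 to 0.49). A_11_P0000010633 (row 250, column 58) had 2.59, 2.70 and 2.63 against 2.82, 2.53 and 2.80, a difference of -0.08 (-0.45 to 0.29). Both lines were lower at A_11_P0000017017 (row 496, column 7), with -1.82, -2.44 and -2.08 against -2.43, -2.05 and -1.94 and an interval of -0.44 to 0.50. At A_11_P0000014682 (row 344, column 56) the values were -1.42, -2.10 and -1.98 against -2.03, -1.72 and -1.75, with an interval of -0.45 to 0.44. In all 4 the columns of the lines interleaved, and at both lower spots the first Twist1 column was the highest of the 6.

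Called spots were found at every level of control signal, which is the denominator of each ratio and so is not independent of the classes. In 5 equal groups of the tested spots ordered by control signal, from dim to bright, 11.1%, 12.2%, 9.86%, 8.07% and 10.9% were called different between the lines. Calls of Twist1 against control ran from 18% in the dimmest group to 47.1% in the middle one, and those of Twist2 from 37.1% in the dimmest to 55.1% in the fourth. Called spots were spread over the array. The 4 equal bands of array rows held 21.9%, 28.6%, 24.5% and 25% of them, against 23.9%, 25.6%, 26.1% and 24.4% of all tested spots. Of the spots called different, 35.5% were measured in both channels on all 5 Twist files, against 44.5% of all tested.

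The other lines took up different sides of these classes. At the 1016 spots higher in Twist2 only, the median log2 ratio was 1.76 in E47 and 1.38 in Snail2, beside 1.79 in Twist2, and it was 0.66 in Zeb2, 0.1 in Snail1 and 0.04 in Zeb1. At the 363 spots lower in Twist2 only the medians were -1.8 in E47, -1.42 in Snail2 and -0.55 in Zeb2, beside -1.92 in Twist2. The 142 spots higher in Twist1 only had medians of 0.17 in E47, 0.81 in Snail2 and 0.7 in Zeb2, beside 1.88 in Twist1. At the 315 spots lower in Twist1 only they were 0.28 in E47, -0.27 in Snail2 and -0.58 in Zeb2, beside -1.46 in Twist1. All lines share the kind of control, and labels conflict for the other lines too. Files equal to the first and second Twist1 columns are recorded for E47, and those equal to the first and second E47 columns for Twist1. The third E47 column equalled a file recorded for Snail2, and the first Snail2 column one recorded for E47. Of 15 columns of the series that equal a file, 9 equal one recorded for another line. These values are thus given side by side with no test.

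**Figure D4:**
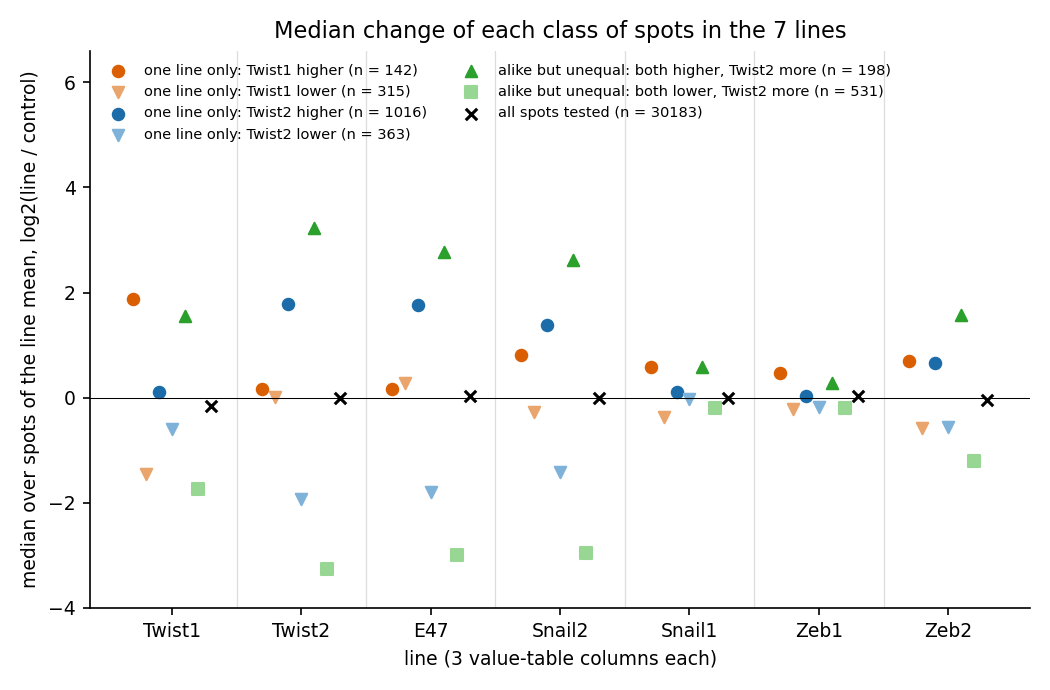
Median log2 ratio to control (vertical) of each of the 7 lines (horizontal) within 6 kinds of divergent spots and over all spots tested, 1 point per kind and line. E47 and Snail2 lie near Twist2 at the 1016 spots higher in Twist2 only (1.76 and 1.38), and Snail1 and Zeb1 lie near 0 there (0.1 and 0.04).

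Set among all 21 pairs of lines, the Twist pair ranked 6 from the fewest calls, with 3142. Twist2 differed from Snail2 at 1123 spots (3.72%) and from E47 at 1819 (6.03%), fewer than from Twist1. It differed from Zeb2 at 5678 (18.8%), from Snail1 at 13049 (43.2%) and from Zeb1 at 13536 (44.8%). Twist1 differed from Zeb2 at 2338 spots (7.75%), fewer than from Twist2. It differed from Snail2 at 4069 (13.5%), from E47 at 6935 (23%), from Snail1 at 9499 (31.5%) and from Zeb1 at 10199 (33.8%). The other paralogue pairs were further apart, with 6327 spots (21%) for Zeb1 and Zeb2 and 11862 (39.3%) for Snail1 and Snail2. The widest pair was E47 and Zeb1 with 14524 (48.1%). Whether one pair differed at more spots than another was not tested, and the count for a pair moves with the spread of its columns. Lines are taken by column name, under the label conflicts given above. The first Zeb2 column had 16.4% of tested spots at least 2-fold from control, against 40.4% and 44.7% in the others. It equalled a file recorded for Zeb1, and it enters every count with Zeb2.

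**Figure D5:**
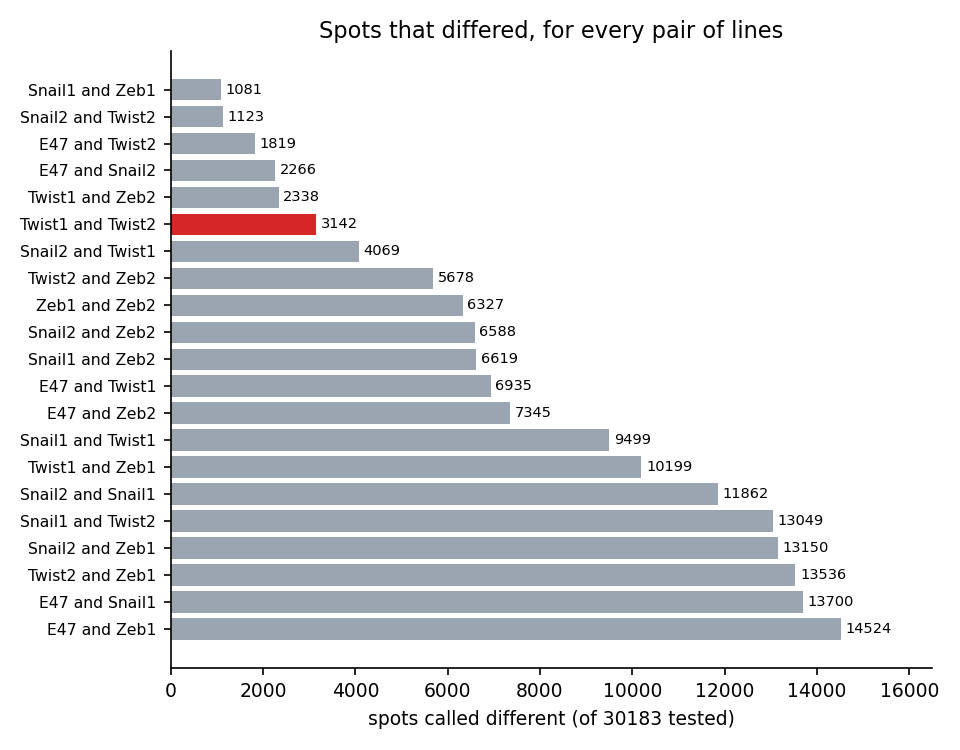
Number of spots called different (horizontal) for each of the 21 pairs of lines (vertical), among 30183 tested. The Twist1 and Twist2 pair, with 3142, lies between Twist1 and Zeb2 (2338) and Snail2 and Twist1 (4069).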

How the data were processed

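Each of 21 two-colour arrays was read by Agilent Feature Extraction, which is version 10.0 per the submitters' processing notes but 10.7.1.1 per the file headers. Intensity columns used from the scanner files are processed signals, background-subtracted and dye-normalised per the file headers, and median signals used for the recorded arrays. The deposited LogRatio column and the deposited value table hold log10 ratios of Cy5 over Cy3. For the third Twist2 column, which equals no file, that scale and direction were assumed, and no source used here says whether the table was centred. Deposited ratios were multiplied by 3.32 to log2. Table columns of no mapped sample numbered 0.

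Of 43451 spots, 1417 controls were left out, and 30183 of 42034 probes were tested, those with a channel well above background in 3 or more of 21 files. One limma fit (limma 3.58.1, R 4.3.3) gave 7 line means (lmFit, eBayes) with Benjamini-Hochberg adjustment over all spots tested. Testing a line mean against 0 leaves out the control's own spread. Recorded arrays were corrected by normexp (offset 50) and loess. The fit was tested on simulated data with independent noise of a common spread for all columns of a spot. Those data held no departing column and no slide effect, so that test does not cover them.

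Spots were named by largest difference within each kind, among those called with and without the first Twist1 column, not overlapping between lines, well above background and unsaturated on the Twist files, up to 4 (opposite), 3 (one line) or 2 (unequal, bounded or alike). The choice of lines, the classes and the departing Twist1 column were fixed with earlier results of these data known. Alternatives are given in the closing section.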

Additional observations from a re-analysis of the deposited data

Results flagged for a closer look

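The results here are those where the effects against control of the lines themselves differed by a limma test of the difference. Groups of 3 columns are too small for a test of single columns standing apart. There were 3142 spots called different between Twist1 and Twist2, and 28 of them changed in opposite directions. Values are log2 differences, Twist1 minus Twist2.

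Among opposite changes they were 2.87 at A_11_P0000014810, 2.78 at A_11_P0000025294, 2.64 at A_11_P0000010568 and 2.38 at A_11_P0000024571, then -3.88 at A_11_P0000034125, -3.41 at A_11_P0000014662 and -2.44 at A_11_P0000019003. Of changes called in Twist1 only, the rises differed by 6.26 at A_11_P0000026594, 2.63 at A_11_P0000029189 and 2.50 at A_11_P0000019754, and the falls by -3.04 at A_11_P000008463, -2.96 at A_11_P0000013889 and -2.28 at A_11_P0000033293. For changes called in Twist2 only they were -3.81 at A_11_P00000778, -2.52 at A_11_P000001831 and -2.41 at A_11_P0000027648, then 2.88 at A_11_P0000023815, 2.66 at A_11_P00000440 and 2.51 at A_11_P000005234.

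For changes alike but unequal the values were 2.20 at A_11_P0000035885, 2.01 at A_11_P0000012705, -2.40 at A_11_P000002681, -2.17 at A_11_P000009033, -2.04 at A_11_P0000020064, -1.76 at A_11_P000006485, 3.19 at A_11_P0000041476 and 2.99 at A_11_P0000015419. At spots not well above background in one line the fitted differences were 6.52 at A_11_P0000023836, 5.81 at A_11_P000009223, -6.65 at A_11_P0000029627 and -5.95 at A_11_P0000027688, and these fitted values are no bounds.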

How the results depend on the processing

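Leaving out 1 Twist column at a time gave 1755 to 4449 calls between the lines, 10875 to 11628 for Twist1 and 14016 to 14695 for Twist2 against control, 26 to 80 opposite changes, 1132 to 2874 in one line only, 344 to 867 alike but unequal and 7297 to 8488 bounded spots. The lowest count between the lines came without the first Twist2 column and the highest without the first Twist1 column. The fit on the 6 Twist columns alone called 797 (opposite 21, one line only 535, unequal 178), array weights 5618 (77, 3373, 1328), scaling between columns 275 (3, 193, 31, with 9633 for Twist2) and quantile normalisation 548 (10, 351, 112). Only spots measured in both channels on all 21 files gave 1278 (6, 592, 487), with 4969 and 6578 calls in Twist1 and Twist2, since fewer spots were tested. The same filter without the first Twist1 column gave 1548 (5, 888, 386), with 5357 and 6581, and 6207 bounded spots. Slide as a fixed block gave 1866 calls and 3240 bounded spots, and counts against control could not be fitted with it. Within the shared slide, with 1 Twist1 array, 2758 were called (127, 2085, 285) and 4282 bounded. The adjusted p with no fold threshold gave 4534 (352, 2252, 1921), and 17976 in Twist1. No filter on signal bounded 17174 spots, and leaving out the first column of either line gave 81 opposite changes. The recorded arrays gave 0 calls in every class with either processing, 5627 and 5562 calls in Twist1 and Twist2 after normexp and loess, and 19963 or, with processed ratios, 3818 bounded spots. Beyond the smaller number of spots or columns, the cause of these moves was not tested.

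The numbers of the labels did not pair the columns, since same-numbered Twist columns deviated from their line means with correlations of -0.018, -0.0578 and 0.00974. With the replicate block 2967 spots were called, and none of the named calls (0) was lost. Of 31 named divergent spots, 21 were run under all 21 alternatives on the value table. The other 10 lack 1 or 2 of them, because a filter or the removal of exchanged values left the spot out. Calls that held in every alternative run numbered 10, of which 6 were run under all 21 and the rest under at least 19. Scaling ended 19 calls, those of every other named divergent spot except A_11_P0000024571 and A_11_P0000035885. The Twist-only fit ended 9, quantile normalisation 7 and leaving out both first columns 6. Slide as a fixed block and the shared slide also ended calls, both from the same single Twist1 array. No alternative on the value table (0 of 632 values) turned a direction. Naming required that the lines not overlap, so leaving out columns could not turn one. That 0 is thus no measure of stability. Centring on tested spots, the filter combined with a left-out column, leaving out exchanged values, leaving out both first columns and the bounded counts under alternatives were chosen after seeing the data.

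In the recorded arrays, 42 of 62 values turned sign. After normexp and loess, then as processed ratios, the differences were -0.24 and -0.51 at A_11_P0000025294, -0.02 and -0.13 at A_11_P0000024571, 0.35 and 0.67 at A_11_P0000014662, 1.96 and 2.04 at A_11_P0000019003, -0.89 and -2.26 at A_11_P0000029189, -0.28 and -0.41 at A_11_P0000019754 and 1.41 and 1.65 at A_11_P000008463. They were 0.37 and 0.78 at A_11_P0000013889, 1.59 and 1.68 at A_11_P0000033293, 1.53 and 1.59 at A_11_P000001831, -0.14 and -0.21 at A_11_P00000440, -0.50 and -0.69 at A_11_P000005234, -0.20 and -0.20 at A_11_P0000035885 and -0.99 and -0.89 at A_11_P0000012705. The last were 0.89 and 0.95 at A_11_P000002681, 2.80 and 3.14 at A_11_P0000020064, 0.95 and 1.13 at A_11_P000006485, -0.62 and -0.76 at A_11_P0000041476, -0.68 and -0.70 at A_11_P0000015419, -0.19 and -0.61 at A_11_P000009223 and 0.83 and 2.93 at A_11_P0000029627. The cause was not tested. The 4 spots changed alike stayed uncalled in every alternative run for them, which leaves out 2 for A_11_P0000039614.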
